A study of Homo sapiens with 10 samples.

Results

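The genes described were 8 subunits of the transcription factor AP-1: FOS, FOSB, FOSL1 (FRA-1) and FOSL2 (FRA-2) of the FOS family, JUN, JUNB and JUND of the JUN family, and BATF3. They were taken from a list of names and found by Ensembl identifier, all 8 of them among the 61533 genes counted, and 7 of the 8 passed the count filter that left 16181 genes to test. The mRNA of each was measured by RNA-seq in 5 libraries of T24 and 5 libraries of T24R2 on day 3 of culture. T24 is a human bladder cancer cell line, and T24R2 is its cisplatin-resistant derivative, obtained by exposing T24 to the drug in series, so each group is a single line and neither carries an engineered allele. The methods state that T24R2 was kept in cisplatin, whereas the labels give both lines the same serum-supplemented RPMI medium and no drug, so that the line and the presence of cisplatin cannot be told apart. Libraries held 9257843 to 10247941 counted fragments in T24 (median 9803565) and 9591379 to 10840954 in T24R2 (median 10354041). T24R2 replicate 3 stood apart from the other 4 libraries of its line, with 2.97% mitochondrial counts against 2.35% to 2.58%, 22813 genes detected against 23596 to 24368, and a chi-square per degree of freedom of 3.98 to 6.51 in its 4 pairs against 1.99 to 3.35 in the others. Nothing in the labels says whether the replicates were separate cultures, so p-values measure only the spread between these libraries.

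AP-1 is a dimer of basic leucine zipper (bZIP) proteins. JUN proteins pair with each other or with FOS proteins, FOS proteins need a partner, and BATF proteins pair mainly with JUN proteins. The dimers bind the element TGA(C/G)TCA, or the related cyclic AMP response element TGACGTCA, and drive genes of growth, migration and matrix breakdown. FOS, FOSB, JUN and JUNB are immediate-early genes, switched on within minutes by growth factors, stress kinases and DNA damage, while FOSL1 is a slower and longer-lived product of the same pathway and is abundant in many invasive carcinomas.

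Stretches of 30 bases are shown because several of these genes carry, beside their own starts, the element that AP-1 and its CREB and ATF relatives recognise. RefSeq promoters (GRCh38.p14, from 250 bases before to 50 after the start) were at hand for 6 of the 8 members, those of FOS, FOSB, FOSL2, JUN, JUNB and JUND. Capitals mark the match, and the stretches read 5′ to 3′ on the strand of the gene.
JUN: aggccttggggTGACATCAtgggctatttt
FOSL2, AP-1 element: gtgccattgtagTGACTCAtctcgggcaga
FOSL2, half-site: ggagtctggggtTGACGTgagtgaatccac
FOS: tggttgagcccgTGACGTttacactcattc
FOSB: gcaaggggcgggTGACGTaagcaggggggc
JUND: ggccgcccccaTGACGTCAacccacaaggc
The JUN stretch lies at chr1:58784096-58784125 on the minus strand, with the match beginning at -67 from the start. The FOSL2 stretches lie at chr2:28392850-28392879 and chr2:28392780-28392809 on the plus strand, with matches at 5 and -66. FOS holds its match at -64 (chr14:75278752-75278781, plus strand), FOSB at -60 (chr19:45467924-45467953, plus strand) and JUND the one shown at -200 (chr19:18281804-18281833, minus strand). JUND also held TGAGCTCA at -54 and a further half-site, read as ACGTCA, at -87, which are not shown.

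Both strands were searched for TGANTCA and TGANNTCA, which read the same on either strand, and for the half-site TGACGT, which is also part of TGACGTCA. TGANTCA was found in FOSL2 alone of the 6 promoters, TGANNTCA in JUN and JUND, and TGACGT in FOS, FOSB, FOSL2 and JUND. Among all 35116 promoters of 300 bases, 7.71% held TGANTCA, 11.5% TGANNTCA and 7.98% TGACGT. The JUNB window held none of the 3, which says only that these letters are not in that window.

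T24R2 held less FOSL1 and JUNB mRNA than T24 and more FOS mRNA, and these were the 3 members called different. A gene was called when edgeR's quasi-likelihood p, adjusted by Benjamini and Hochberg's method over all tested genes, was under 0.05 and its log2 fold change exceeded 0.5 in either direction, the thresholds the study chose. By this rule 1 of the 7 tested members was higher and 2 were lower, against 24.9% of all tested genes called higher and 26.5% called lower. In all, 8309 of the 16181 genes (51.4%) were called, so the 3 of 7 members called (42.9%) is a share near the background. The median log2 fold change was -0.24 over the 7 members and 0.01 over all genes tested. The 5 libraries of each line lay fully apart for 3 members (FOSL1, JUNB and JUN), against 61.2% of all tested genes. An adjusted p under 0.05 with no minimum fold was reached by 6 of the 7 members, against 75.5% of all genes.

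**Figure D1:**
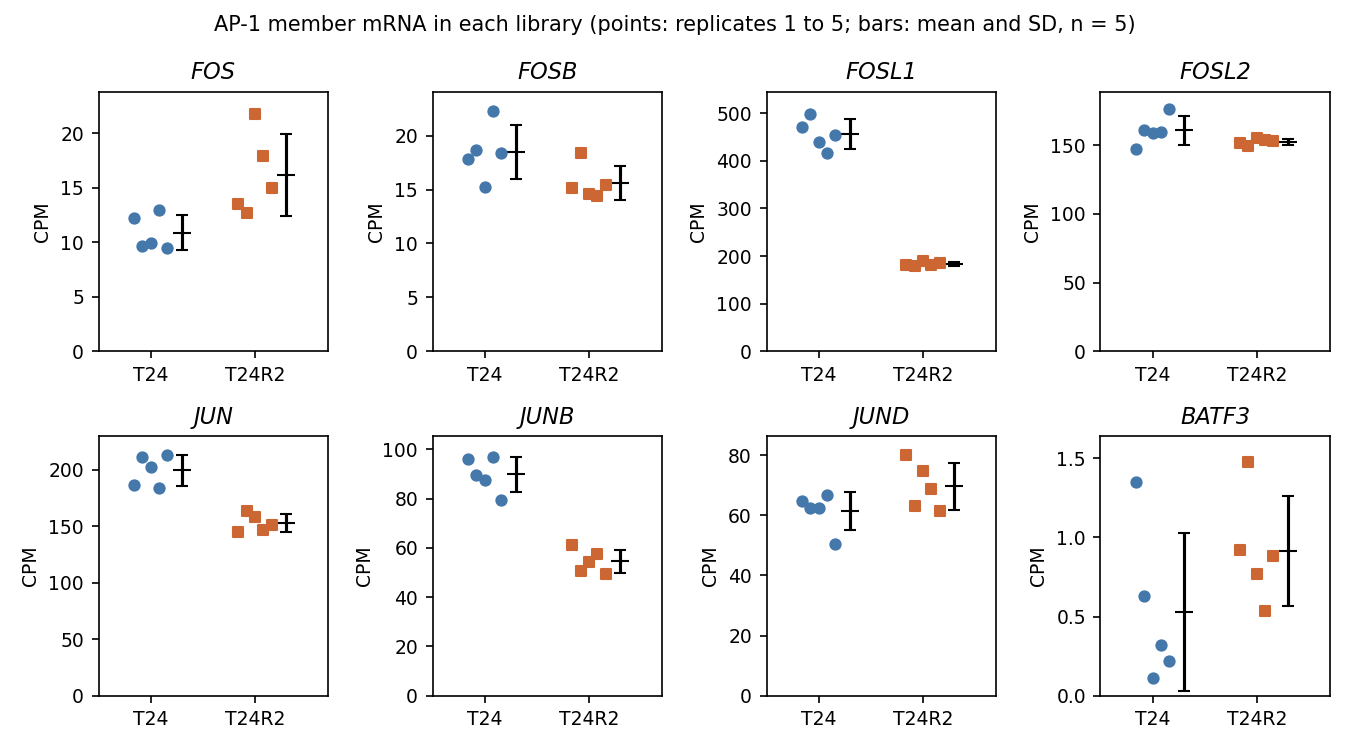
Level of each AP-1 member in the 5 T24 (circles) and 5 T24R2 (squares) libraries, in CPM, counts scaled to library size, on axes that start at 0; bars give the mean and SD, n = 5 per line. FOSL1, JUN and JUNB libraries of T24R2 lie below every T24 library, while those of the other 5 members overlap between the lines.

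FOSL1 (ENSG00000175592.9, chr11:65892049-65900573, minus strand, hg38) was the most abundant member and, in the counts as deposited, had the largest fall. In CPM, scaled with TMM library sizes, its level in T24 replicates 1 to 5 was 471, 498, 439, 417 and 455, and in T24R2 replicates 1 to 5 it was 182, 180, 191, 181 and 185. All T24R2 libraries were lower than all T24 libraries, and the lines were far apart relative to the spread within them. The mean fell from 456 ± 30.8 to 184 ± 4.29 CPM (SD, n = 5 each), which left 40.3% of the T24 level. The log2 fold change was -1.31 (SE 0.05, edgeR adjusted p = 6.64e-26), and the exact two-sided permutation test gave p = 0.00794, the smallest that 5 libraries against 5 allow. As these are bulk libraries, fewer cells with the transcript and less of it per cell cannot be told apart.

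FOSL2 (ENSG00000075426.12, chr2:28392448-28417317, plus strand), the other FRA protein gene, was nearly level between the lines. T24 libraries held 148, 161, 159, 160 and 177 CPM and T24R2 libraries 152, 150, 156, 154 and 153 CPM. The 2 sets overlapped, with T24 replicate 1 below every T24R2 library and T24 replicate 5 the highest of all. Its log2 fold change of -0.07 (SE 0.05) missed the threshold by edgeR's test (adjusted p = 0.150, exact permutation p = 0.0952), and its sign turned when library sizes were not TMM-scaled (0.088) and relative to genes of like GC content, a calculation chosen after seeing the data (0.066). Within T24R2 it was the steadiest member, its SD of log2 CPM being 0.02 against a median of 0.07 for genes of like abundance.

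FOS (ENSG00000170345.10, chr14:75278826-75282230, plus strand), the founding immediate-early subunit, was low in both lines and higher in T24R2. T24 libraries held 12.2, 9.68, 9.94, 12.9 and 9.50 CPM, from 87 to 120 counts. T24R2 libraries held 13.5, 12.7, 21.8, 17.9 and 14.95 CPM, from 146 to 227 counts. Only T24 replicate 4 and T24R2 replicate 2 crossed, and T24R2 replicate 3 stood highest. The mean went from 10.9 ± 1.60 to 16.2 ± 3.73 CPM (SD over 5 libraries), for a log2 fold change of 0.57 (SE 0.13, edgeR adjusted p = 0.000212, exact permutation p = 0.0159). Without T24R2 replicate 3 the log2 fold change was 0.45 and FOS was no longer called. The other immediate-early genes did not move one way in that library: against the mean of the line, on the log2 scale, KLF2 stood at 0.43, IER3 at 0.32, EGR1 at 0.056 and PPP1R15A at -0.34. The part of the quality of that library in the FOS value was not tested. The SD of log2 FOS CPM in T24R2 was 0.30, larger than in 98.1% of 1562 genes of like abundance in that line, while in T24 the corresponding SD was 0.19 and larger than in 55.4% of 1336 genes.

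FOSB (ENSG00000125740.14, chr19:45467995-45475179, plus strand), a close relative of FOS, had a lower mean in T24R2 and was not called. Its libraries held 17.9, 18.6, 15.2, 22.3 and 18.4 CPM in T24 and 15.1, 18.4, 14.6, 14.4 and 15.4 CPM in T24R2. T24 replicate 3 lay among the T24R2 libraries and T24R2 replicate 2 among those of T24, so the lines overlapped. The log2 fold change was -0.24 (SE 0.11), under the fold minimum, with an edgeR adjusted p of 0.0374 and an exact permutation p of 0.0635. Without TMM scaling it was -0.079 (edgeR adjusted p = 0.504), and relative to genes of like GC content -0.054.

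JUN (ENSG00000177606.8, chr1:58776845-58784048, minus strand), the partner shared by most AP-1 dimers, had a lower level in every T24R2 library and was not called. T24 libraries held 186, 212, 203, 183 and 213 CPM and T24R2 libraries 145, 164, 158, 147 and 151 CPM. The lines did not overlap. The mean of 199 ± 13.8 in T24 stood against 153 ± 7.97 CPM in T24R2 (SD, n = 5 each). The log2 fold change of -0.38 (SE 0.05) did not reach the fold minimum, although the edgeR adjusted p was 7.76e-09 and the exact permutation p was 0.00794. It was -0.22 without TMM scaling and -0.21 relative to genes of like GC content.

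JUNB (ENSG00000171223.6, chr19:12791486-12793315, plus strand), which is often a weaker activator than JUN and can oppose it, fell in T24R2. JUNB libraries held 96.0, 89.5, 87.6, 97.0 and 79.5 CPM in T24 and 61.0, 50.5, 54.3, 57.5 and 49.6 CPM in T24R2. The lines did not overlap, the lowest T24 library being replicate 5 and the highest T24R2 library replicate 1. JUNB fell from a mean of 89.9 ± 7.10 to 54.6 ± 4.80 CPM (SD, n = 5 each), with a log2 fold change of -0.72 (SE 0.06, edgeR adjusted p = 2.81e-13, exact permutation p = 0.00794). JUNB is rich in G and C (64.9% of exon bases, above 96.8% of tested genes), and the 808 genes in the top 20th of GC content had a median log2 fold change of -0.19. Taken relative to genes of like GC content, the JUNB difference was -0.43 on the log2 scale, below the fold minimum.

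The JUNB exons also share 259 bases, 14.2% of their length, with exons of HOOK2 on the opposite strand. Counting used strand option 1, while the library kit is not described in the methods as keeping strand, so some JUNB counts may belong to HOOK2. HOOK2 itself was at 43.6 CPM in T24 and 49.9 CPM in T24R2. With the part of HOOK2 that its shared bases make up (4.35%) taken off JUNB, the log2 ratio of means was -0.75, and with all HOOK2 counts taken off it was -3.33, both on the same side as the deposited -0.72. No other member shared an exon base with another gene: FOSB lies within the span of ERCC1 and the span of FOSL2 meets that of FOSL2-AS1, each with 0 shared exon bases.

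JUND (ENSG00000130522.6, chr19:18279694-18281622, minus strand), the JUN protein gene that most cells keep on at rest, was not called. T24 libraries held 64.8, 62.3, 62.5, 66.9 and 50.4 CPM and T24R2 libraries 79.9, 63.0, 74.6, 68.8 and 61.6 CPM. The lines overlapped, and T24 replicate 5 was well below its 4 companions. The log2 fold change was 0.18 (SE 0.07, edgeR adjusted p = 0.0201, exact permutation p = 0.127), below the fold minimum. Its GC content of 69.9% exceeded that of 99.6% of tested genes. Relative to genes of like GC content the difference was 0.46, and without TMM scaling the log2 fold change was 0.34, both still under the minimum.

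BATF3 (ENSG00000123685.9, chr1:212686417-212699840, minus strand), best known for a role in dendritic cells, was close to the limit of detection and did not pass the filter. Counts were 13, 6, 1, 3 and 2 in T24 and 10, 17, 8, 6 and 9 in T24R2, overlapping widely (exact permutation test of CPM, p = 0.198). Fitted without the filter over 33622 genes, its log2 fold change was 0.77 (SE 0.50, edgeR adjusted p = 0.211), a difference not detectable at this depth.

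Members can be ranked against each other only per length, here as CPM per kb of exon. On this scale T24 levels were 242 for FOSL1, 55.0 for JUN, 49.1 for JUNB, 31.8 for JUND, 22.4 for FOSL2, 3.41 for FOS, 3.32 for FOSB and 0.205 for BATF3. Neighbours in this order whose libraries overlapped were JUN with JUNB and FOS with FOSB, so their ranks do not differ beyond the spread. In T24R2 the per-length levels were 97.4 for FOSL1, 42.2 for JUN, 36.1 for JUND, 29.8 for JUNB, 21.3 for FOSL2, 5.07 for FOS, 2.81 for FOSB and 0.356 for BATF3. There JUN overlapped with JUND and JUND with JUNB, whereas FOS stood above FOSB in all 5 libraries and without overlap.

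**Figure D2:**
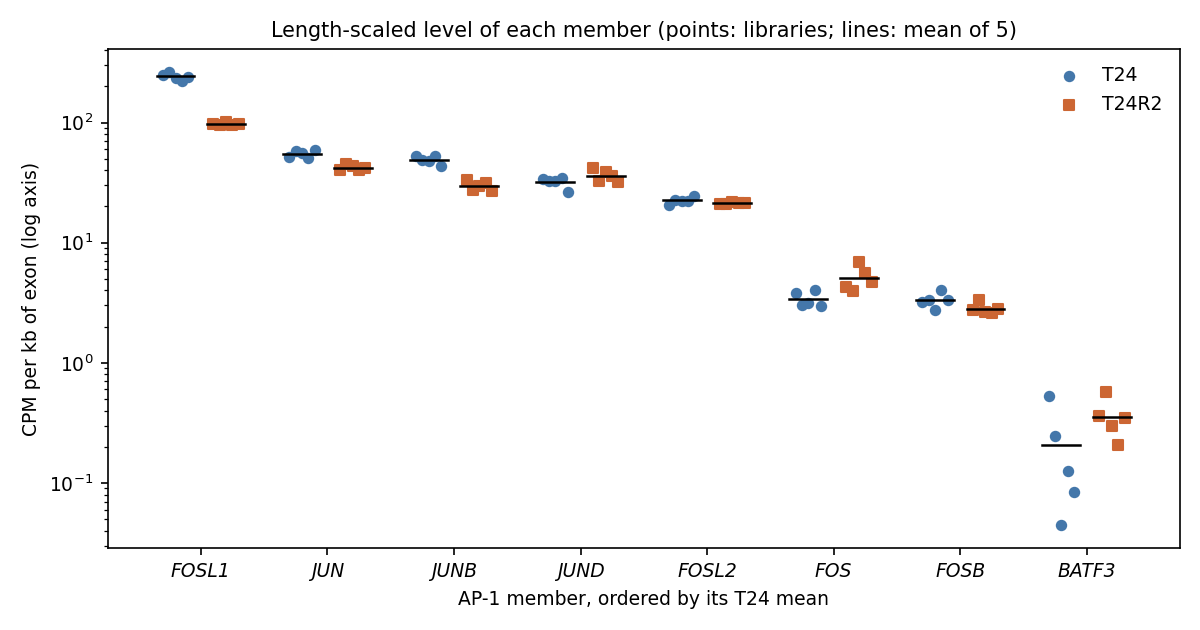
CPM per kb of exon (log axis) of the 8 members, ordered by their T24 mean, with a point per library (circles T24, squares T24R2) and a line at the mean of 5. FOSL1 leads in both lines, at 242 in T24 and 97.4 in T24R2, and the order of JUNB and JUND differs between the lines.

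Within the FOS family, FOSL1 made up 89.2% ± 0.938 of the summed per-length level in T24 and 76.9% ± 0.480 in T24R2, as mean and SD of 5 libraries. FOSL2 took 8.31% ± 0.721 in T24 and 16.8% ± 0.249 in T24R2, and FOS 1.27% ± 0.235 and 3.99% ± 0.815. No library of a line reached into the range of the other for these 3 shares. Without division by length, FOSL1 made up 70.5% in T24 and 49.9% in T24R2, and FOSL2 24.9% and 41.5%. The family sum was 271 ± 15.9 CPM per kb in T24 and 127 ± 3.41 in T24R2, a ratio of 0.467. FOSL1 was 10.8 times FOSL2 in T24 and 4.57 times in T24R2, per length.

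Within the JUN family, the share of JUN was 40.5% ± 3.70 in T24 and 39.2% ± 3.16 in T24R2, overlapping between the lines. JUNB held 36.1% ± 2.02 in T24 and 27.6% ± 1.46 in T24R2, and JUND 23.4% ± 1.82 and 33.3% ± 2.09 (SD, n = 5 each). Per length, the ratio of JUND to JUNB was 0.647 in T24 and 1.21 in T24R2, above 1 in 0 of 5 T24 and 5 of 5 T24R2 libraries. The family sum was 136 ± 4.46 CPM per kb in T24 and 108 ± 5.50 in T24R2, a ratio of 0.795.

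JUNB and JUND also moved together among libraries of the same line. After the mean of each line was taken off log2 CPM, their deviations had a Pearson r of 0.91 over the 10 libraries (exact permutation within lines, p = 0.00208, 0.0438 adjusted over the 21 pairs of members) and a Spearman rho of 0.90 (exact p = 0.00431, adjusted 0.0904). With the 2 libraries farthest from the median of JUNB left out, r was 0.82. JUN went the other way from JUNB, with r of -0.78 (exact p = 0.0160, adjusted 0.168) and rho of -0.80 (exact p = 0.0192, adjusted 0.201), which did not pass the adjustment. These permutations order each line separately, so libraries of the same number in the 2 lines are treated as unrelated. In both lines, JUNB and JUND lay above the line mean in replicate 1 and below it in replicate 5. If libraries of the same number are related, the p-values of this paragraph are too small. The deviations of JUNB and JUND correlated by 0.36 and 0.39 with those of the genes highest in GC, and the part of base composition in the JUNB and JUND relation was not tested.

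**Figure D3:**
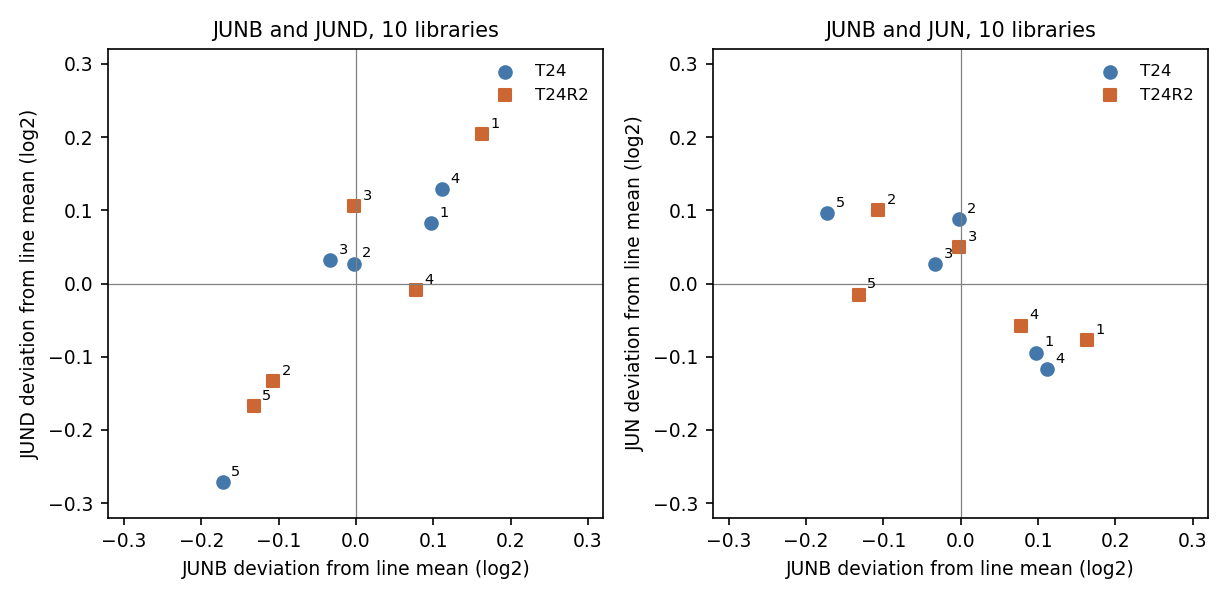
Deviation of each library from the mean of its line (log2 CPM), JUND against JUNB on the left and JUN against JUNB on the right, with replicate numbers beside the points (circles T24, squares T24R2). JUND rises with JUNB (r of 0.91 over 10 libraries) and JUN falls (r of -0.78).

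The genes whose within-line deviations were most like each member's were sought among 6531 genes of at least 32 CPM, over 10 libraries, as a description of libraries that share depth and base composition. For JUNB they were RHPN1 (r of 0.97), RETREG2 (0.94) and JUND (0.91), and for JUND they were CEP164 (0.95), ECSIT (0.93) and RETREG2 (0.93). FOSL1 was most like SSRP1 (0.94), BAP1 (0.93) and PITRM1 (0.93), and JUN most like DHX9 (0.94), AAR2 (0.91) and UBASH3B (0.91). FOS was most like HOXB6, IP6K2 and PWP1 (each 0.93), FOSB like KPNB1-DT (0.96), GATAD1 (0.91) and MRPL34 (0.87), and FOSL2 like VPS39 (0.92), TRAPPC8 (0.90) and CCAR2 (0.88). JUND was the only member found among the genes most like another member.

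Nearest tested genes did not all move with the member beside them. LINC01135, which starts 336 bases from JUN, was higher in T24R2 (log2 fold change 1.24, edgeR adjusted p = 0.00233). Its level was low, at a mean of 1.30 CPM over all libraries. CCDC85B, 414 bases from FOSL1, had a log2 fold change of -0.38 and was not called, and C11orf68 on the other side of FOSL1 fell by 0.65 on the log2 scale. JDP2, a bZIP partner of JUN and the nearest tested gene downstream of FOS, fell by 0.74 on the log2 scale, while TMED10 on the other side was at 0.00. Beside JUNB, GET3 rose by 0.72 and PRDX2 was at 0.16, and beside FOSB, RTN2 fell by 0.96 and POLR1G was at -0.03. ERCC1, whose span holds FOSB on the other strand, fell from 144 to 85.1 CPM (log2 fold change -0.76, edgeR adjusted p = 2.56e-15). FOSL2 lies between BABAM2, which rose by 0.63, and PPP1CB-DT, at -0.42 and not called. RAB3A (0.07) and LSM4 (-0.25) beside JUND, and ATF3 (-0.10) and NSL1 (0.43) beside BATF3, were not called.

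Among 12 related bZIP factors, which pair with AP-1 subunits or compete for their sites, 9 were tested, 1 rose, 4 fell and 4 were not called, with a median log2 fold change of -0.45. That is 11.1% higher and 44.4% lower, against 24.9% and 26.5% of all tested genes. ATF2, a partner of JUN on the cyclic AMP element, rose from 49.8 ± 3.63 to 152 ± 3.89 CPM (SD over 5 libraries), and the log2 fold change was 1.61 (SE 0.05, edgeR adjusted p = 1.07e-26). MAFF fell from 84.8 to 47.8 CPM and MAFK from 49.1 to 32.8 CPM, both small MAF proteins without an activation domain, with log2 fold changes of -0.83 and -0.59. BATF2 (-2.23) and JDP2 (-0.74) fell as well, both repressive partners of JUN, from 5.32 and 12.4 CPM in T24, BATF2 having passed the count filter through T24 only. ATF2, JDP2, MAFF and MAFK share exon bases with an opposite-strand gene. Without such genes 3 factors were left, 0 called higher and 1, BATF2, lower. MAFG (-0.04), ATF7 (-0.37) and NFIL3 (-0.45) were not called.

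Of 24 other immediate-early genes, 20 were tested, 3 rose, 6 fell and 11 were not called, with a median log2 fold change of -0.23. The shares of 15% higher and 30% lower were near those of all tested genes (24.9% and 26.5%). BTG2, among the 6 that fell, passed the count filter through T24 only, so its direction was fixed by the filter. KLF4, a zinc finger factor, rose from 22.0 ± 3.20 to 62.7 ± 2.56 CPM (log2 fold change 1.51, SE 0.08), and GADD45B, a stress sensor upstream of JNK and p38, rose by 0.67 on the log2 scale. DUSP5, the nuclear phosphatase of ERK, fell from 208 ± 13.2 to 86.6 ± 3.68 CPM (-1.26, SE 0.05), and IER5 (-1.002) and CCN1, a matrix protein (-0.93), fell with it. All 5 passed by edgeR's test, the largest adjusted p being 1.40e-12 for GADD45B. EGR1, the immediate-early factor most often read beside FOS, was at 17.1 ± 2.19 CPM in T24 and 17.2 ± 1.99 in T24R2, a log2 fold change of 0.01 (edgeR adjusted p = 0.905). CCN2 (-0.36), KLF6 (-0.17) and DUSP1 (-0.47) were not called. BTG2, EGR1, KLF2, IER3 and PPP1R15A were named after their values were seen.

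All 25 kinases and factors upstream of AP-1 were tested, and 6 rose, 8 fell and 11 were not called (median log2 fold change -0.10). These 24% higher and 32% lower were near the 24.9% and 26.5% of all tested genes, and without genes overlapped from the opposite strand 16 were left, 5 higher and 4 lower. MAPK7 (ERK5) rose from 24.3 ± 1.03 to 50.9 ± 5.51 CPM (log2 fold change 1.07), and ELK1, the ternary complex factor of the FOS promoter, rose by 0.79 on the log2 scale, while its relative ELK3 fell by 0.68. RPS6KA1 (RSK1), an ERK-activated kinase that phosphorylates FOS, fell by 0.93, and MAP3K5 (ASK1), a stress kinase above JNK, fell by 1.05. The largest edgeR adjusted p of these 5 genes was that of ELK3, 1.47e-14. MAP2K2 (-0.07) and MAP2K1 (0.23), the kinases that activate ERK, were not called.

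Among 11 genes for turnover of JUN and FOS protein or mRNA, 10 were tested, 0 rose, 2 fell and 8 were not called (median log2 fold change 0.05), against 24.9% of all tested genes higher and 26.5% lower. The absence of rises was from edgeR with the fold minimum. With an adjusted p under 0.05 alone, 4 of the 10 rose and 4 fell, and 75.5% of all tested genes passed that threshold in either direction. Without TMM scaling 3 of the 10 were called higher and 1 lower. ITCH, a ubiquitin ligase for JUN and JUNB, fell from 383 ± 37.5 to 187 ± 7.07 CPM (-1.03, SE 0.05, edgeR adjusted p = 7.71e-21), and HNRNPD (AUF1), which binds AU-rich elements such as that of FOS mRNA, fell by 0.65. ZFP36L1 (0.03), KHSRP (0.41) and ELAVL1 (0.26) were not called.

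Among 29 genes known as AP-1 targets, 25 were tested, and the majority were lower in T24R2. Of these 25, 18 fell (72.0%, against 26.5% of all tested genes), 4 rose (16%, against 24.9%) and 3 were not called, with a median log2 fold change of -1.70. Of the genes that fell, 6 (MMP1, MMP10, MMP13, IL11, PTGS2 and AREG) passed the count filter through T24 only, and TNC passed through T24R2 only, so their directions were fixed by the filter and the shares are not support for a change of the list. ITGA2, a collagen receptor, fell from 230 ± 10.1 to 34.9 ± 2.85 CPM (log2 fold change -2.72, SE 0.06, edgeR adjusted p = 7.94e-34). TNC and VIM, known as genes of mesenchymal cells, rose, TNC from 1.03 ± 0.756 to 326 ± 8.58 CPM (8.28) and VIM from 482 ± 14.3 to 3963 ± 198 CPM (3.04). MT2A (-0.43), LIF (-0.24) and TIMP1 (-0.08) were the 3 not called.

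The target list was assembled with earlier results of these libraries known, so its count is a description. When targets whose exons meet those of an opposite-strand gene were left out, a choice made after seeing the data, 14 were kept, of which 1 rose and 11 fell. MMP10, MMP13, IL11 and AREG, among these 11, passed the count filter through T24 only. TNC and VIM are among the targets so overlapped, as are MAPK7, ELK3, HNRNPD, KRT7, FOXA1, COL1A1 and ACTA2 in the other lists, and part of their counts may belong to the opposite gene. Of 17 markers of bladder epithelium, 9 were tested and all 9 were called lower in T24R2, against 26.5% of all tested genes. Their median log2 fold change was -1.86. KRT19, GATA3 and EPCAM passed the count filter through T24 only, so the direction of these 3 was fixed by the filter. Without those overlapped from the opposite strand, 4 were left, all 4 lower. They were PPARG and the same KRT19, GATA3 and EPCAM, so the filter left only the direction of PPARG open. KRT7 fell from 2242 to 1370 CPM (-0.71), PPARG from 75.9 to 26.2 CPM (-1.54), FOXA1 from 66.7 to 13.8 CPM (-2.27), GATA3 from 22.1 to 0.214 CPM and KRT19 from 267 to 0.0887 CPM. The 17 markers summed to 5344 CPM in T24 and 3114 CPM in T24R2, KRT7 being the most abundant, and 4 of the 17 had at most 3 counts in every library. The part of this shift in the AP-1 genes and their targets was not tested.

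Of 15 markers of other cell types, 5 were tested and all 5 passed the count filter through T24 only, so that their lower level in T24R2 was fixed by the filter. Their median log2 fold change was -3.53, the sum of the 15 going from 261 to 4.47 CPM, and 7 had at most 3 counts in every library. The endothelial gene CDH5 made up nearly all of it, at 239 ± 22.3 CPM in T24 and 0.559 ± 0.310 in T24R2 (-8.72), while another endothelial gene, PECAM1, was at 5.36 CPM in T24 and 1.17 CPM in T24R2. COL1A1 and ACTA2 were at 6.45 and 5.25 CPM in T24 and had log2 fold changes of -2.65 and -3.53. PDGFRB was at 3.43 CPM in T24 and had 0 counts in every T24R2 library, at least 12.4-fold lower against a floor of 3 counts per library. By DESeq2, 1 marker of the list was called higher, and 2 were by edgeR without the count filter. The part of CDH5 and the other marker genes in the member results was not tested.

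**Figure D4:**
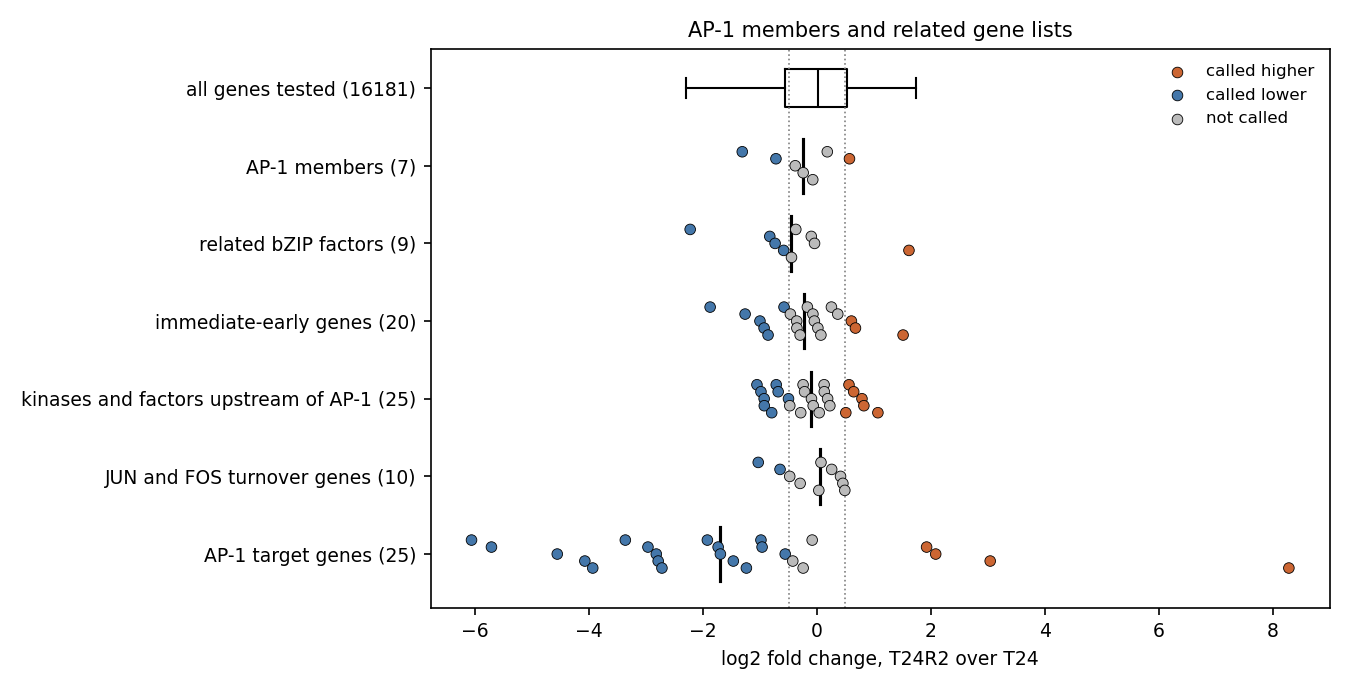
Log2 fold change (T24R2 over T24) of each tested gene of the AP-1 members and 5 related lists, with the number tested in brackets, a bar at each median, dotted lines at the fold minimum of 0.5 either way and, at the top, a box of the quartiles of all 16181 genes with whiskers at the 5th and 95th percentiles. The AP-1 target list has the lowest median of the 6 lists drawn, -1.70, and the members' median is -0.24; both marker lists, which are not drawn, have lower medians (-1.86 and -3.53).

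Stretches of 30 bases from promoters of the targets are shown because they hold the full AP-1 or cyclic AMP element, 4 in genes that fell and that of MT2A in a gene not called. Capitals mark the match.
CXCL8: taggaagtgtgaTGACTCAggtttgccctg
PLAUR: atcacaactccaTGAGTCAgggccgagcca
IL11: aggcagggagggTGAGTCAggatgtgtcag
AREG: cggccgggcctTGACGTCAtgggctgcggc
MT2A: tggagccgcaagTGACTCAgcgcggggcgt
They lie in GRCh38.p14 at chr4:73740420-73740449 (plus strand, match at -137) for CXCL8, chr19:43670338-43670367 (minus strand, -186) for PLAUR, chr19:55370542-55370571 (minus strand, -96) for IL11, chr4:74445060-74445089 (plus strand, -65) for AREG and chr16:56608468-56608497 (plus strand, -104) for MT2A. CXCL8, a neutrophil chemokine, fell from 381 ± 26.3 to 100.3 ± 11.4 CPM (log2 fold change -1.92), and PLAUR, the urokinase receptor, from 83.2 ± 8.37 to 25.0 ± 0.450 CPM (-1.74). IL11, a cytokine of the interleukin 6 family, fell from 17.6 ± 2.79 to 1.05 ± 0.480 CPM, and AREG, a ligand of the EGF receptor, from 28.7 ± 3.29 to 0.532 ± 0.228 CPM. IL11 and AREG passed the count filter through T24 only, so their direction was fixed by the filter. TGANTCA was present in 6 of the 19 target promoters on hand (31.6%, against 7.71% of all promoters), those of CXCL8, EZR, IL11, MMP10, MT2A and PLAUR. TGANNTCA was in 3 of the 19 (15.8%, against 11.5%), those of AREG, IL11 and MMP10, and TGACGT in 3 (15.8%, against 7.98%), those of AREG, which fell, IL6, which rose, and TIMP1, not called. Of the genes with TGANTCA, 5 of 6 were called lower, as were 72.0% of the target list as a whole. Both shares include genes that passed the count filter through T24 only, IL11 and MMP10 among the 5 and 6 genes in the list. The direction of those genes was fixed by the filter, so the 2 shares are a description. These genes were listed as AP-1 targets, some of them known through such an element, so the share of promoters with a match is set in part by how the list was made. A match is a description of letters and not of binding, which was not measured. CXCL8, PLAUR, IL11, IL6, AREG, EZR, EPCAM, PTGS2, MMP1, MMP10 and MMP13 were named after their values were seen.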

How the data were processed

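The authors aligned reads to hg38 with STAR 2.7.0, retained unique, deduplicated alignments (SAMtools 1.10) and deposited raw fragment counts per gene (featureCounts 2.0.1, GENCODE 39, strand option 1); the versions are from the submitters' processing notes and the file headers. Removal of duplicates can lower the counts of abundant transcripts. No row lacked a gene identifier (0 rows), and 61369 of 61533 genes matched a symbol. The members, gene lists and tests were chosen with earlier results of these data known.

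Counts were fitted on the whole table in R 4.3.3 with edgeR 4.0.16 (filterByExpr, TMM, glmQLFit, glmQLFTest), and BH-adjusted over 16181 genes. CPM used TMM-scaled library sizes. Alternatives used DESeq2 1.42.0, limma 3.58.1 (voom), other scalings, filters and thresholds, a replicate block and omission of each library. Pairs of replicates of a line differed by more than sampling noise (chi-square divided by its degrees of freedom, 1.99 to 6.51). The steps were tested on simulated data. Exon overlaps used bedtools 2.31.1, other steps Python 3.11.15 with numpy 2.4.6, pandas 2.3.3, SciPy 1.17.1 and matplotlib 3.10.9.

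Named genes are the 8 members, their overlapping and nearest tested genes, the 3 genes most like each member, and from each list up to 5 called genes of smallest adjusted p and up to 3 most abundant genes not called. Exceptions are stated where they occur. A few genes chosen in this way are not reported here.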

Additional observations from a re-analysis of the deposited data

Results flagged for a closer look

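In 9 of 102 sets of 5 libraries, over 52 named genes and both lines, a library stood apart by Dixon's criterion, where about 1 in 20 sets, or 5.1, would by chance. For the AP-1 members these were FOSB in T24R2 replicate 2 (18.4 CPM, the other libraries of its line at 14.4 to 15.4) and JUND in T24 replicate 5 (50.4 CPM, others at 62.3 to 66.9). JUNB was also lowest in T24 replicate 5 (79.5 CPM).

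Among related genes, NFIL3 stood apart in both lines, high in T24 replicate 1 (19.5 CPM) and low in T24R2 replicate 2 (7.28 CPM). KLF4 was low in T24R2 replicate 4 (58.3 CPM), RPS6KA1 low in T24 replicate 4 (65.6 CPM) and ELK1 high in T24 replicate 2 (53.8 CPM). Among targets, VIM was high in T24R2 replicate 3 (4306 CPM) and ITGA2 was low in T24 replicate 1 (212 CPM). T24R2 replicate 3 is also the library with the highest FOS level (21.8 CPM).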

How the results depend on the processing

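FOSL1 fell under every alternative run, with log2 fold changes of -1.35 to -1.12, and FOS was higher under every one, at 0.45 to 0.78. Calls moved mainly with the fold minimum. At an absolute log2 fold change over 1, 4211 genes were called (1918 higher, 2293 lower), with 0 members higher and 1 lower, FOS (0.57) and JUNB (-0.72) dropping out. With no minimum, 12212 genes (75.5%) were called, 6128 of them higher and the rest lower. Among members 2 were then higher and 4 lower, as JUN (-0.38), FOSB (-0.24) and JUND (0.18) passed. A mean of at least 100 counts left fewer genes to test, and 4991 were called (2350 higher, 2641 lower). Without scaling beyond library size the median of all genes moved to 0.18, calls split into 5206 higher and 3431 lower against 4027 and 4282, FOSL2 turned to 0.088, and JUN was -0.22, FOSB -0.079 and JUND 0.34. Relative to genes of like GC content, chosen after seeing the data, FOSL2 turned to 0.066 JUNB was -0.43, below the minimum, JUN -0.21, FOSB -0.054 and JUND 0.46; the cause was not tested. Among the lists, 5 immediate-early genes in place of 3 were called higher by DESeq2, and without genes overlapped from the opposite strand every list lost members. Per-length shares depend on the division by length: without it FOSL1 made up 70.5% of the FOS family in T24 and 49.9% in T24R2.

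Leaving out each library in turn gave 8398 to 8466 genes called, 4042 to 4138 higher and 4293 to 4374 lower. Members called higher were 0 to 1 and lower 2 to 2. Log2 fold changes ranged from 0.45 to 0.65 for FOS, the lowest and uncalled without T24R2 replicate 3, -0.31 to -0.17 for FOSB, -1.35 to -1.28 for FOSL1, -0.11 to -0.04 for FOSL2, -0.42 to -0.36 for JUN, -0.77 to -0.68 for JUNB and 0.11 to 0.23 for JUND.

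With the replicate number as a block, 8240 genes were called and FOS was 0.56; the block changed no member's call. Libraries of the same number correlated by 0.00 to 0.13 in their deviations over 6531 genes, each best with its own number for 2 of 5. JUNB deviated alike in both lines in replicate 1 (0.10 in T24, 0.16 in T24R2) and replicate 5 (-0.17 and -0.13). Whether libraries of the same number shared more than a number was not tested. Depth limits BATF3, at 1 to 17 counts per library.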
